A study of Mus musculus with 6 samples.

Results

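Growth factor genes and genes of the TGF-beta pathway were examined in bone marrow-derived macrophages (BMDM) of miR-155 knockout (KO) mice after inflammatory M1(LPS + IFN-γ) or alternative M2(IL-4) activation. The 10 genes were Igf1, Vegfa, Pdgfa, Pdgfb, Pdgfc, Hbegf, Tgfb1, Tgfbr1, Tgfbr2 and Inhba, and every array probe set annotated with one of these symbols alone was taken. This gave 24 probe sets, among 38544 probe sets with a single symbol, which stand for 20967 genes. Each gene had 2 probe sets except Igf1, which had 4, and Tgfbr1 and Tgfbr2, which had 3 each.

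Total RNA of 6 BMDM cultures was hybridised to Affymetrix mouse expression arrays, and the question was how each activation changed gene expression in macrophages that lack miR-155. All cultures came from the marrow of 2 mice of the strain B6.Cg-Mir155tm1.1Rsky/J, which carry the Mir155 deletion in all their cells, and each mouse gave 1 culture per condition. Cells grew in medium with L929 cell supernatant, a source of M-CSF, and were replated without it on day 7. KO M1 cells received LPS at 100 ng/ml with IFN-γ at 20 ng/ml, KO M2 cells received IL-4 at 20 ng/ml, and KO M0 cells were left in medium alone, all for 24 hours. The sources used here give no age for the mice. Arrays of wild-type cells were not analysed here, so that every comparison is among KO cells. In these bulk samples a lower value can come from fewer cells of a type or from less RNA per cell, and these cannot be told apart.

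The genes encode secreted or shed growth factors and the receptors through which one of them acts. Igf1, the PDGF chains, Vegfa and Hbegf signal through receptor tyrosine kinases to promote survival, proliferation and vessel growth, and macrophages are a known source of them in healing tissue. TGF-beta1 is secreted in a latent form, and once it is released, the type II receptor Tgfbr2 binds it and activates the type I receptor Tgfbr1, which phosphorylates SMAD proteins that enter the nucleus. miR-155 is a miRNA that inflammatory stimuli induce in macrophages, and it pairs with target mRNAs through its seed. Its main mature strand is shown because all 6 cultures lack it, with the seed (bases 2 to 8) in capitals, as RefSeq gives it on GRCm38.p6 at chr16:84714143-84714165, plus strand.
mmu-miR-155-5p: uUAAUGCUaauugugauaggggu

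Values are linear RMA intensities, which can be compared between arrays for one probe set but not between probe sets. The probe set named for Mir155 lay between 9.33 and 10.8 on the 6 arrays, and without wild-type arrays it checks no label. The 8 macrophage markers all had mean intensities of at least 100, and their summed intensity was 82194 to 84018 in KO M1, 57279 to 60092 in KO M2 and 76665 to 77926 in KO M0. Against KO M0, 1 of the 8 was higher in KO M1 and 4 were lower in KO M2, by limma, and their part in the KO M2 results was not tested. Of the markers of other cell types, means of at least 100 were found for 1 of 8 fibroblast, 2 of 6 endothelial, 2 of 6 megakaryocyte and platelet, 1 of 7 neutrophil and 0 of 6 lymphocyte markers. The 2 mice were further apart in KO M1, where 433 probe sets differed more than 2-fold between them, than in KO M2 (120) or KO M0 (49). RNA integrity as read from the log2 ratio of 3′ to 5′ Gapdh signal came to 0.089 and 0.153 in KO M1, 0.198 and 0.112 in KO M2, and -0.077 and -0.074 in KO M0. The part of this ratio in the results was not tested.

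Against KO M0, the changes of growth factors past the test in KO M1 were all falls, and in KO M2 Pdgfa and Hbegf were higher and both TGF-beta receptors were lower. With limma (Benjamini-Hochberg adjusted p under 0.05 over 45037 probe sets), 0 of the 24 probe sets were higher and 11 were lower for KO M1 against KO M0, where 2.76% of all probe sets were higher and 4.32% were lower. Of the 24, only Inhba 1422053_at was higher at an unadjusted p under 0.05. In KO M2, 5 were higher and 5 were lower than in KO M0, against 3.61% and 3.57% of all probe sets. Between the stimulated conditions, 2 were higher and 12 lower for KO M1 against KO M2, beside 5.31% and 7.63%. With the mouse as a block, 7 of the 11 lower calls in KO M1 passed. The genes were chosen with earlier results of these data known, so the shares beside the counts are no test of them. Several of the 24 probe sets repeat a gene. Counted by gene, 0 of the 10 were higher and 4 lower in KO M1, beside 3.81% and 4.52% of all genes. In KO M2, 2 were higher and 2 lower, beside 4.53% and 3.08%. For KO M1 against KO M2, 1 was higher and 6 lower, beside 6.39% and 9.02%. Read from the brightest probe set of each gene, the median log2 change of the 10 genes was -0.56 for KO M1 against KO M0, 0.20 for KO M2 against KO M0 and -0.70 for KO M1 against KO M2, beside 0.05, -0.00 and 0.06 over all genes.

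**Figure D1:**
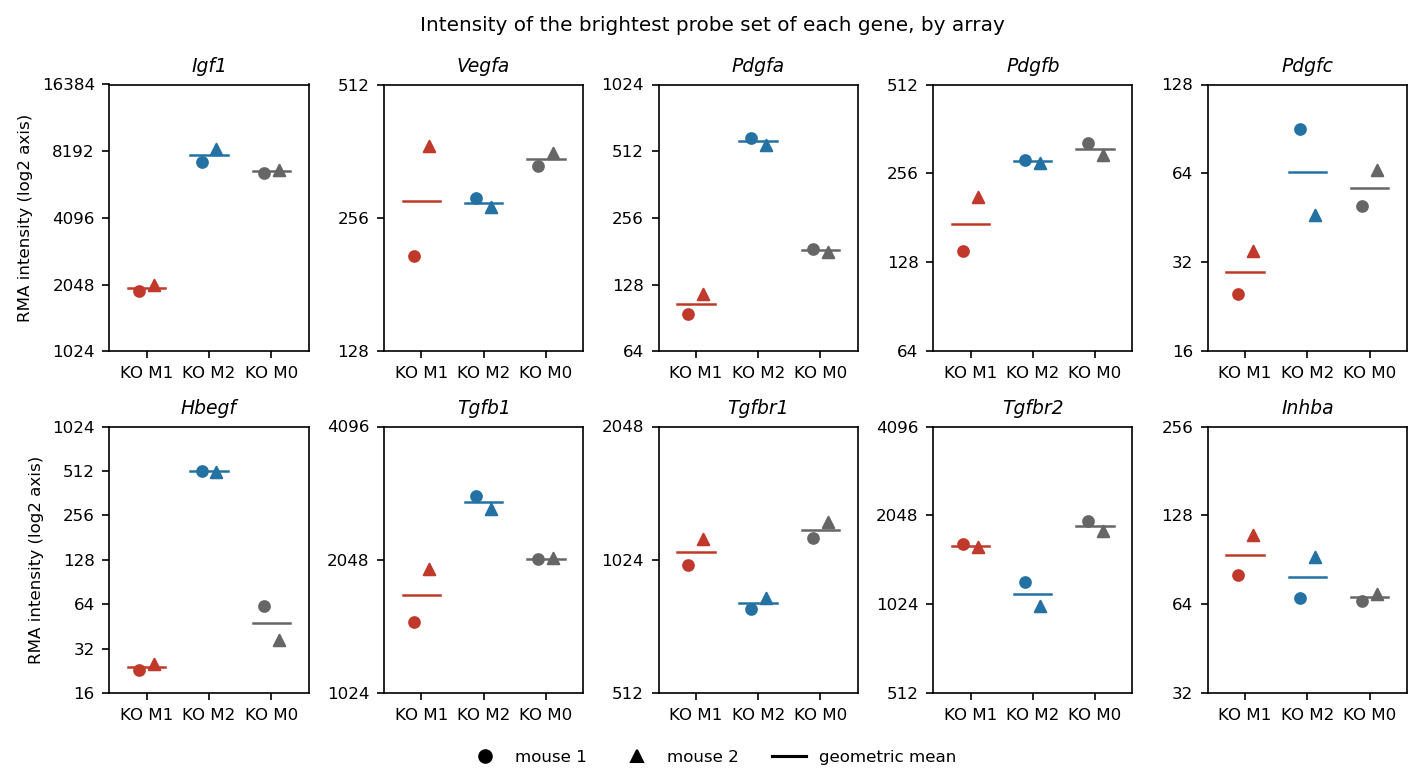
RMA intensity (log2 axis) of the brightest probe set of each of the 10 genes on each array, with KO M1, KO M2 and KO M0 from left to right. Circles are mouse 1, triangles mouse 2 and bars the geometric mean, and the KO M1 points of Igf1 (1917 and 2035) and the KO M2 points of Hbegf (509 and 508) stand clear of the other arrays.

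Igf1 encodes insulin-like growth factor 1, a survival and growth signal that acts through Igf1r. Its brightest probe set, 1452014_a_at, read 1917 and 2035 in KO M1 (mouse 1 and mouse 2, as in all lists that follow), 7306 and 8408 in KO M2, and 6528 and 6759 in KO M0. Both KO M1 arrays lay below all 4 others. The log2 change in KO M1 against KO M0 was -1.75 (SE 0.13), a 3.36-fold fall, with an adjusted p of 0.000161 by limma. The other 3 Igf1 probe sets fell by 1.88 to 1.98 on the log2 scale, so that all 4 passed the test.

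In KO M2, Igf1 was above KO M0 on every array of each probe set, but by less. The log2 change was 0.24 for 1452014_a_at (adjusted p = 0.365), 0.29 for 1419519_at (0.329), 0.47 for 1434413_at (0.0679) and 0.55 (SE 0.12) for 1437401_at (0.0261, limma). Only 1437401_at passed, with 4190 and 3913 in KO M2 against 2785 and 2728 in KO M0, and its adjusted p was 0.0538 with the mouse as a block. Leaving out any of the KO M2 or KO M0 arrays, replicate 1 or 2, also ended that call (adjusted p up to 0.165). 1434413_at did pass with each array centred on its median (adjusted p = 0.0401), with probe sets under a mean of 50 left out (0.0431), with an intensity trend (0.0375) and with 16 added before the log2 (0.0378). In KO M1 against KO M2 all 4 probe sets were lower, with log2 changes of -1.99 to -2.43.

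The Igf1 promoter window of RefSeq is shown because Igf1 fell in KO M1 on all its probe sets. Of the windows taken, it alone held a match to a motif searched. It runs from 250 bases before to 50 after the start at chr10:87860861-87861160 (GRCm38.p6, plus strand), and the capitals mark a match to TGANTCA, the pattern searched for AP-1, 37 bases before the start. The pattern allows any base at its centre (N), and the match has A there. The motifs searched on both strands were TGANTCA (AP-1, in 7.81% of 32851 windows), TTCNNNGAA (STAT, 8.3%), the STAT6 motif, which has a longer spacer (6.95%), and GTCTAGAC (SMAD, 0.213%). Windows were taken for 8 of the 10 genes (none for Pdgfb or Hbegf), 11 windows in all, and 1 window held any match. The match is a run of letters, not a measured binding site.
Igf1: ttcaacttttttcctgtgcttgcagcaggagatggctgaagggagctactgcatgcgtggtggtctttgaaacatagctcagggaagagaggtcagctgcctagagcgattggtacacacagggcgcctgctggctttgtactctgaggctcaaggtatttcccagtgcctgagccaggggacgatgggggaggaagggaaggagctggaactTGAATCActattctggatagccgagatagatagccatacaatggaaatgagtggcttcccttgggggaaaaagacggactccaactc

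Vegfa encodes the main growth factor of blood vessels. Its brightest probe set, 1451959_a_at, read 210 and 372 in KO M1, 283 and 271 in KO M2, and 336 and 359 in KO M0. 1420909_at read 138 and 363 in KO M1, 269 and 213 in KO M2, and 255 and 229 in KO M0. The KO M1 cultures of the 2 mice were split: on both probe sets, mouse 1 was the lowest and mouse 2 the highest of the 6 arrays.

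No Vegfa probe set passed the test in any comparison. Within mouse 1 the KO M1 change of 1420909_at was -0.88, and within mouse 2 it was 0.67. For 1451959_a_at the fitted KO M1 against KO M0 change was -0.31 (95% interval -0.84 to 0.22, adjusted p = 0.521 by limma), and without the KO M1 array of mouse 2 it was -0.73 (adjusted p = 0.0197). For 1420909_at the change was -0.11 (95% interval -0.95 to 0.73), and -0.80 without that array (adjusted p = 0.0309), which also brought KO M1 against KO M2 to -0.79 (adjusted p = 0.0228). In KO M2 against KO M0 the changes were -0.33 (95% interval -0.86 to 0.20) and -0.01 (95% interval -0.85 to 0.83).

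Pdgfa, Pdgfb and Pdgfc encode chains of platelet-derived growth factor, a mitogen of mesenchymal cells. Pdgfa moved in opposite directions under the 2 stimuli. Its probe set 1418711_at read 94.1 and 116 in KO M1, 589 and 545 in KO M2, and 186 and 180 in KO M0, and the 3 conditions did not overlap. KO M2 was 3.09-fold above KO M0 (log2 change 1.63, SE 0.14, adjusted p = 0.000317 by limma) and KO M1 was 1.76-fold below it (log2 change -0.81, SE 0.14, adjusted p = 0.01). The second probe set, 1449187_at, read 83.6 and 96.5 in KO M1, 542 and 461 in KO M2, and 170 and 129 in KO M0, with log2 changes of 1.75 in KO M2 (adjusted p = 0.000574) and -0.72 in KO M1 (adjusted p = 0.0374).

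The rise of Pdgfa in KO M2 passed with the mouse as a block and with every array left out in turn. The fall in KO M1 was less firm: on 1449187_at the adjusted p was 0.0574 with the block and up to 0.255 when any 1 array but KO M1 replicate 2 was left out, and on 1418711_at it was 0.101 and 0.0742 without KO M0 replicate 1 and without KO M0 replicate 2. Platelets also carry PDGF, and the summed intensity of the 6 megakaryocyte and platelet markers was 414 to 444 in KO M1, 489 to 661 in KO M2 and 398 to 422 in KO M0. The difference lay mainly in Ppbp, a chemokine of platelets, at 11.7 and 36.8 in KO M1, 322 and 180 in KO M2, and 42.1 and 36.6 in KO M0. Of the 6 markers, Ppbp alone was called in KO M2 against KO M0 by limma, and their median log2 change was -0.13. The part of these markers in the Pdgfa result was not tested.

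The Pdgfa promoter window farthest upstream is shown as that of the one gene of the 10 whose probe sets all changed in both stimulated conditions, and it held none of the motifs searched. It lies at chr5:138994895-138995194 (GRCm38.p6, minus strand, RefSeq), with no capitals because there was no match.
Pdgfa: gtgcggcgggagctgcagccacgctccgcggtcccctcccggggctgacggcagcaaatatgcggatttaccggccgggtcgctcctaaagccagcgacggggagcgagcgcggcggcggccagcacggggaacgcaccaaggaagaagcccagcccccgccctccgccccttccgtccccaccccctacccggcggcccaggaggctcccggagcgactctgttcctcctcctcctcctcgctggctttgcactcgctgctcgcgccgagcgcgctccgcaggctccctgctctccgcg

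Pdgfb was lower in KO M1 on 1 of its probe sets. 1450414_at read 140 and 213 in KO M1, 285 and 278 in KO M2, and 326 and 296 in KO M0, and both KO M1 arrays lay below all others. The log2 change of KO M1 was -0.85 against KO M0 (SE 0.19, adjusted p = 0.0332, limma) and -0.71 against KO M2 (adjusted p = 0.0444), which moved to adjusted p = 0.0539 and 0.0666 once the mouse was a block. Leaving out any 1 array other than KO M1 replicate 2 ended both calls (adjusted p up to 0.215 and 0.168). On 1450413_at, which read 74.1 and 72.2 in KO M1, 89.0 and 88.5 in KO M2, and 113 and 94.2 in KO M0, the KO M1 change was -0.49 (adjusted p = 0.0614).

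Pdgfc was dim on both probe sets, and its KO M1 arrays were the lowest. 1419123_a_at read 24.7 and 15.4 in KO M1, 91.1 and 49.7 in KO M2, and 64.8 and 51.1 in KO M0. It fell by 1.56 on the log2 scale in KO M1 against KO M0 (SE 0.30, adjusted p = 0.0179 by limma) and by 1.79 against KO M2 (adjusted p = 0.0054). The call against KO M0 was lost without KO M1 replicate 2 or either KO M0 array (adjusted p up to 0.155) and with 16 added before the log2 (log2 change -1.04, adjusted p = 0.0764). 1449351_s_at read 25.0 and 35.1 in KO M1, 90.3 and 46.3 in KO M2, and 49.8 and 65.7 in KO M0. Its change was -0.95 against KO M0 (adjusted p = 0.109), which reached 0.0432 without KO M2 replicate 1 or 2, and -1.13 against KO M2 (adjusted p = 0.0431, or 0.0768 with the mouse as a block, and up to 0.189 without KO M1 replicate 1, KO M2 replicate 1 or either KO M0 array). The 2 mice differed in sign for the KO M2 change of this probe set, at 0.86 in mouse 1 and -0.51 in mouse 2.

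Hbegf encodes an EGF family ligand that is anchored in the membrane and shed by proteases to act on Egfr and Erbb4. It had the largest rise among the 10 genes in KO M2. Its probe set 1418350_at read 23.1 and 25.2 in KO M1, 509 and 508 in KO M2, and 62.8 and 36.6 in KO M0. Both KO M2 arrays were far above all others, with a log2 change of 3.41 against KO M0 (SE 0.22, adjusted p = 7.64e-05 by limma), and KO M1 against KO M2 was -4.40 (adjusted p = 9.11e-06). With 16 added before the log2 these changes were 3.03 and -3.71 (adjusted p = 0.00158 and 0.000404), since their size depends on the dim KO M0 and KO M1 values. 1418349_at read 35.7 and 43.1 in KO M1, 390 and 305 in KO M2, and 50.03 and 35.3 in KO M0, with a KO M2 change of 3.04 (SE 0.20, adjusted p = 7.67e-05).

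The Hbegf probe sets gave unlike values for KO M1 against KO M0. The change was -0.99 on 1418350_at (SE 0.22, adjusted p = 0.033) and -0.10 on 1418349_at (adjusted p = 0.845), where the KO M1 and KO M0 arrays overlapped. Both probe sets were dim in these conditions, and the call on 1418350_at was lost without any 1 array other than KO M0 replicate 2 (adjusted p up to 0.137) and with 16 added to each intensity before the log2 (log2 change -0.68, adjusted p = 0.0959).

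**Figure D2:**
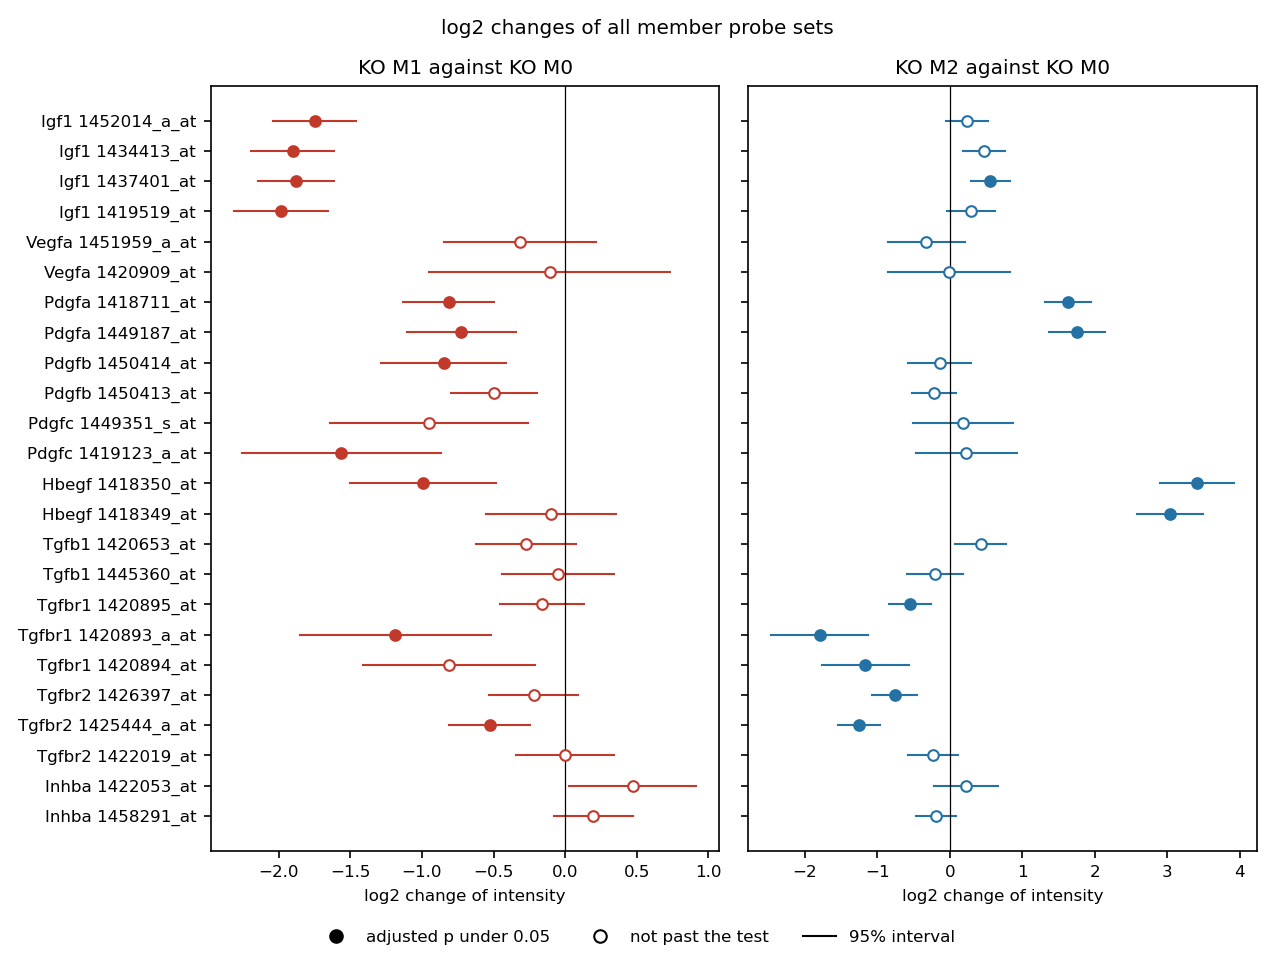
log2 change of all 24 probe sets in KO M1 (left) and KO M2 (right) against KO M0, with 95% intervals from the limma fit. Filled points have an adjusted p under 0.05. The 4 Igf1 probe sets form the lowest block on the left (-1.75 to -1.98), and the 2 Hbegf probe sets are the highest on the right (3.41 and 3.04).

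Tgfb1, the latent cytokine itself, did not pass the test in either stimulated condition against KO M0. Its probe set 1420653_at read 1483 and 1958 in KO M1, 2856 and 2672 in KO M2, and 2057 and 2064 in KO M0. The 3 conditions did not overlap, with KO M1 lowest and KO M2 highest. The log2 change was -0.27 in KO M1 (95% interval -0.62 to 0.07, adjusted p = 0.368) and 0.42 in KO M2 (95% interval 0.08 to 0.77, adjusted p = 0.159, limma). KO M1 was lower than KO M2 by 0.70 on the log2 scale (SE 0.15, adjusted p = 0.0179), a call that was lost without KO M1 replicate 1 or either KO M2 array (adjusted p up to 0.0992). The dim probe set 1445360_at, at 44.5 to 65.4 on all arrays, gave no call.

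Inhba encodes the subunit of activin A, a TGF-beta family ligand. 1422053_at read 80.6 and 110 in KO M1, 67.3 and 92.8 in KO M2, and 65.9 and 69.5 in KO M0. Both KO M1 arrays were above both KO M0 arrays, and the change was 0.47 (95% interval 0.03 to 0.92, adjusted p = 0.214 by limma). 1458291_at read 43.7 and 44.8 in KO M1, 34.7 and 33.1 in KO M2, and 40.6 and 36.7 in KO M0, and its largest difference, 0.38 for KO M1 against KO M2, had an adjusted p of 0.0784.

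Tgfbr2, the type II receptor, was lowest in KO M2. Its brightest probe set, 1426397_at, read 1639 and 1600 in KO M1, 1223 and 1014 in KO M2, and 1967 and 1809 in KO M0. The 3 conditions did not overlap, and KO M2 was lower than KO M0 by 0.76 on the log2 scale (SE 0.14, adjusted p = 0.0123 by limma). 1425444_a_at read 211 and 188 in KO M1, 121 and 121 in KO M2, and 299 and 276 in KO M0, with a KO M2 change of -1.25 (SE 0.12, adjusted p = 0.000716).

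Tgfbr2 in KO M1 lay between the other conditions on both of these probe sets. Against KO M0 its change was -0.22 on 1426397_at (adjusted p = 0.425) and -0.53 on 1425444_a_at (adjusted p = 0.0404 by limma, or 0.0654 with the mouse as a block), and any 1 array left out ended that call (adjusted p up to 0.253). Against KO M2 it was higher by 0.54 (adjusted p = 0.0326) and 0.73 (adjusted p = 0.00571). Without KO M2 replicate 2 or either KO M0 array the KO M2 call on 1426397_at was lost (adjusted p up to 0.125), and its call in KO M1 against KO M2 was lost without any 1 array other than KO M2 replicate 1 (up to 0.205), while both calls on 1425444_a_at passed with every array left out in turn. The third probe set, 1422019_at, read near the bottom of the scale and gave no call.

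Tgfbr1, the type I receptor, was also lower in KO M2, on all 3 of its probe sets. 1420895_at read 1000 and 1141 in KO M1, 795 and 841 in KO M2, and 1147 and 1245 in KO M0, so that both KO M2 arrays were lowest. The KO M2 change was -0.55 (SE 0.13, adjusted p = 0.0389 by limma, or 0.0557 with the mouse as a block), and leaving out any 1 KO M2 or KO M0 array, replicate 1 or 2, ended the call (adjusted p up to 0.235). With each array centred on its median, the KO M2 change of 1420895_at was -0.48 and did not pass (adjusted p = 0.0644 by limma). 1420893_a_at read 85.5 and 65.3 in KO M1, 34.4 and 69.5 in KO M2, and 159 and 181 in KO M0. 1420894_at read 65.9 and 59.3 in KO M1, 34.96 and 68.0 in KO M2, and 111 and 108 in KO M0.

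On these 2 dimmer Tgfbr1 probe sets all stimulated arrays were below both KO M0 arrays. The KO M2 change was -1.80 on 1420893_a_at (SE 0.29, adjusted p = 0.00783) and -1.17 on 1420894_at (SE 0.26, adjusted p = 0.0329, limma), and the calls were lost without either KO M0 array (adjusted p up to 0.0775 and 0.198), the second also without KO M2 replicate 1. In KO M1 the change was -1.19 on 1420893_a_at (adjusted p = 0.0465, or 0.0652 with the mouse as a block, and up to 0.253 without a KO M1 or KO M0 array, replicate 1 or 2) and -0.81 on 1420894_at (adjusted p = 0.115, but 0.0127 without either KO M2 array). On the brightest probe set the KO M1 change was -0.16 (adjusted p = 0.551). For KO M1 against KO M2 no Tgfbr1 probe set passed, with changes of 0.36 to 0.61, and without KO M2 replicate 2 the dimmer ones did, with adjusted p of 0.0193 and 0.0211.

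The 2 mice gave changes of the same sign for 19 of the 24 probe sets in KO M1 and for 21 in KO M2. The exceptions in KO M1 were both Vegfa probe sets, Hbegf 1418349_at, Tgfb1 1445360_at and Tgfbr2 1422019_at, and in KO M2 they were Vegfa 1420909_at and both Pdgfc probe sets. In KO M1 the change within mouse 2 was above that within mouse 1 for 19 of the 24, and in KO M2 this was so for 13 of the 24. The same counts were not made over all probe sets, so nothing particular to the 24 can be read from them. Several of the 24 also repeat a gene.

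**Figure D3:**
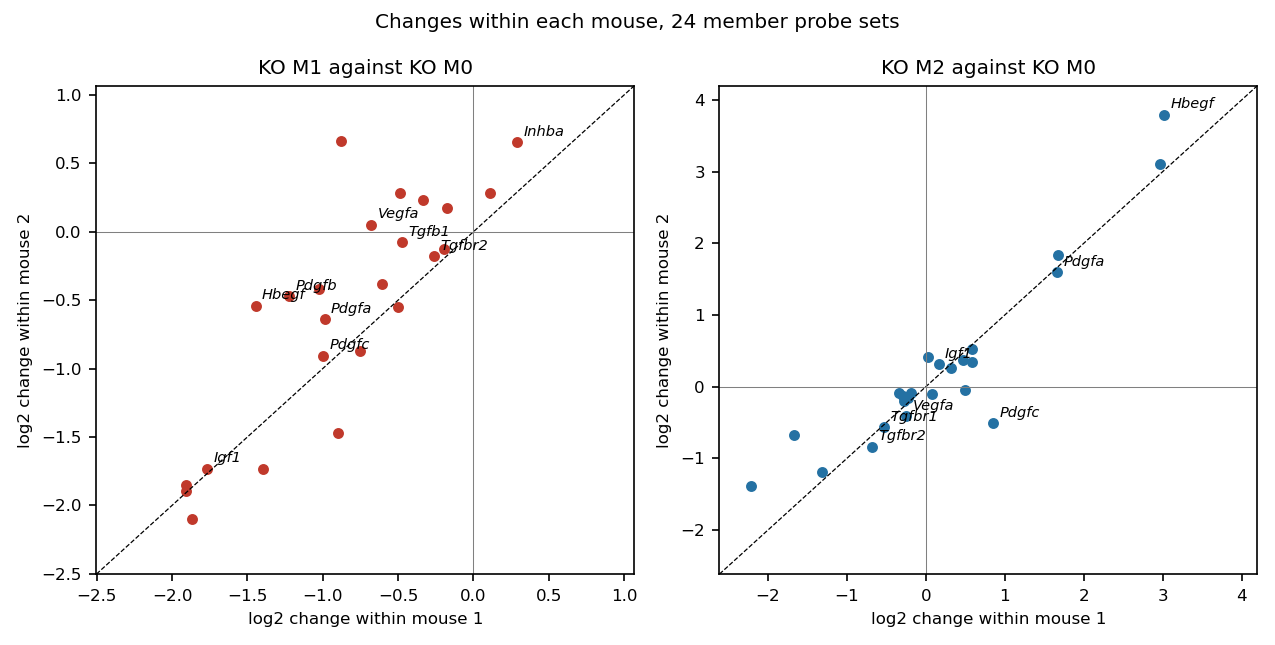
log2 change within mouse 2 (vertical axis) against that within mouse 1 (horizontal axis) for the 24 probe sets, in KO M1 (left) and KO M2 (right) against KO M0 of the same mouse, with some brightest probe sets named and the dashed line marking equal changes. In KO M1, 19 of the 24 points lie above the line, and the point farthest above it is Vegfa 1420909_at (-0.88 and 0.67). The share of all probe sets above the line was not counted.

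The other genes of these pathways were read from their brightest probe sets, beside 3.81% of all genes higher and 4.52% lower in KO M1, and 4.53% higher and 3.08% lower in KO M2, against KO M0. In KO M1 against KO M2, 6.39% were higher and 9.02% lower. These lists, too, were chosen with earlier results of these data known. Of the 20 measured TGF-beta family ligands and activators, 1 was higher and 0 lower in KO M1, and 2 were higher and 1 lower in KO M2. Their median log2 changes were 0.07 and -0.05.

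The 5 genes of this list with a call in any comparison follow. Thbs1, thrombospondin 1, which can activate latent TGF-beta, read 3226 and 6704 in KO M1, 1922 and 648 in KO M2, and 1145 and 808 in KO M0. Its KO M1 change was 2.27 (SE 0.49, adjusted p = 0.0273 by limma), lost without KO M1 replicate 2 or either KO M0 array (adjusted p up to 0.193). Itgb8, a chain of the integrin that activates latent TGF-beta, read 17.8 and 13.9 in KO M1, 33.5 and 47.8 in KO M2, and 8.62 and 12.7 in KO M0, a KO M2 change of 1.94 at dim values (adjusted p = 0.00179), or 1.08 with 16 added before the log2 (adjusted p = 0.016).

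Furin, the protease that cleaves the TGF-beta precursor, rose in KO M2 to 319 and 270, against 140 and 163 in KO M0 (log2 change 0.96, adjusted p = 0.00908 by limma, and up to 0.103 without KO M2 replicate 1 or KO M0 replicate 1). Gdf15, a distant family member induced by stress, fell in KO M2 by 1.33 on the log2 scale (adjusted p = 0.0465, or 0.0861 with the mouse as a block, and up to 0.271 without a KO M2 or KO M0 array, replicate 1 or 2). Bmp7, a bone morphogenetic protein, was called only in KO M1 against KO M2, at 0.43 (adjusted p = 0.0478, or 0.0864 with the block, and up to 0.203 without any 1 array). Of the 20 genes, 2 were higher and 2 lower in that comparison.

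Of 10 other TGF-beta family receptors, 1 was higher in each stimulated condition and none was lower, with medians of 0.01 in KO M1 and -0.01 in KO M2. Acvr1b, a type I receptor of activin, read 891 and 1082 in KO M1, 493 and 493 in KO M2, and 579 and 567 in KO M0. Its KO M1 change was 0.78 (adjusted p = 0.0101 by limma, and up to 0.0888 without either KO M0 array). Acvr1, a type I receptor of bone morphogenetic proteins, changed by 0.54 in KO M2 (adjusted p = 0.0441, or 0.0728 with the mouse as a block, and up to 0.292 without a KO M2 or KO M0 array, replicate 1 or 2).

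The SMAD list of 20 transducers and inhibitors had 4 higher and 0 lower genes in KO M1, and 4 higher and 1 lower in KO M2, with medians of 0.27 and 0.13. With the mouse as a block, Tgif1, a co-repressor, did not pass in KO M1 (adjusted p = 0.0521 against 0.0347 without it), and in KO M2 Smad7, an inhibitory SMAD (0.0881 against 0.0497), and Ski, a co-repressor (0.0531 against 0.0332), did not pass. Smad6, an inhibitory SMAD, read 103 and 87.2 in KO M1, 17.8 and 19.0 in KO M2, and 19.8 and 18.2 in KO M0, a KO M1 change of 2.32 (SE 0.13, adjusted p = 6.92e-05 by limma), or 1.66 with 16 added before the log2 (adjusted p = 0.00173). Skil, a co-repressor of SMAD proteins, read 2610 and 2628 in KO M1, 773 and 817 in KO M2, and 749 and 967 in KO M0, a KO M1 change of 1.62 (SE 0.15, adjusted p = 0.000439). In both genes the KO M1 arrays stood above all others.

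Pmepa1, a membrane protein that sequesters SMAD proteins and is itself induced by TGF-beta, was higher in both stimulated conditions. It read 90.2 and 82.5 in KO M1, 455 and 323 in KO M2, and 49.1 and 47.9 in KO M0. The KO M2 change was 2.98 (SE 0.17, adjusted p = 3.67e-05 by limma) and the KO M1 change 0.83 (adjusted p = 0.0219, but 0.067 with 16 added before the log2, and up to 0.146 without KO M1 replicate 1 or either KO M0 array). Smurf1, a ubiquitin ligase for SMAD proteins, rose in KO M2 to 556 and 566, against 265 and 271 in KO M0 (log2 change 1.06, adjusted p = 0.00172). Smad3, a transducer of TGF-beta signals, was the gene called lower, at 181 and 148 in KO M2 against 268 and 253 in KO M0 (log2 change -0.67, adjusted p = 0.0254, and up to 0.193 without KO M2 replicate 2 or either KO M0 array).

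Genes that the list shares with TGF-beta responses (Smad7, Skil and Pmepa1) count in both. Of 19 TGF-beta response genes, 5 were higher and 2 lower in KO M1, and 4 were higher and 0 lower in KO M2, with medians of 0.03 and 0.09. Tgfbi, a matrix protein named for its induction by TGF-beta, read 7249 and 10566 in KO M1, 2464 and 2559 in KO M2, and 871 and 1646 in KO M0. It was 7.31-fold higher in KO M1 (log2 change 2.87, SE 0.28, adjusted p = 0.000698 by limma), and all KO M1 and KO M2 arrays lay above KO M0. Its KO M2 change was 1.07 (adjusted p = 0.0611).

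Fn1, fibronectin, read 110 and 122 in KO M1, 3161 and 1092 in KO M2, and 208 and 92.0 in KO M0, a KO M2 change of 3.75 (SE 0.48, adjusted p = 0.00256 by limma). The mice were far apart, and with 1 KO M2 or KO M0 array left out, replicate 1 or 2, the change ran between 2.98 and 4.51. The summed fibroblast markers were 326 to 388 in KO M1, 237 to 552 in KO M2 and 230 to 334 in KO M0, with Col1a2, a collagen chain, at 342 and 86.2 in the KO M2 cultures. Col1a2, with a mean of 163.6 over all arrays, was the only 1 of the 8 fibroblast markers with a mean of at least 100. By limma 0 of the 8 were called in KO M2 against KO M0, and their median log2 change was 0.01. The part of the fibroblast markers in the Fn1 result was not tested. Rgs1, a regulator of G protein signalling, fell in KO M1 by 1.97 on the log2 scale (adjusted p = 0.00115), and Cdkn2b, a cell cycle inhibitor, rose in KO M2 by 1.37 (adjusted p = 0.000923).

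Of 14 genes of the IGF axis, 0 were higher and 1 was lower in KO M1, and 1 was higher and 1 lower in KO M2, with medians of 0.03 and 0.06. Igfbp4, a binding protein that holds IGF away from its receptor, read 1006 and 857 in KO M1, 908 and 617 in KO M2, and 2765 and 2620 in KO M0. It was lower in both stimulated conditions, with a log2 change of -1.53 in KO M1 (adjusted p = 0.00187 by limma) and -1.85 in KO M2 (adjusted p = 0.000767). Irs2, an adaptor of the insulin and IGF receptors and a known IL-4 signalling adaptor, read 59.6 and 70.7 in KO M1, 175 and 167 in KO M2, and 65.1 and 52.5 in KO M0. Its KO M2 change was 1.55 (adjusted p = 0.000635).

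Of 9 genes of the VEGF axis, 1 was higher and 2 were lower in KO M1, and 1 was higher and 0 lower in KO M2, with medians of -0.11 and -0.02. Flt1, a VEGF receptor, read 13.8 and 26.3 in KO M1, 1405 and 1243 in KO M2, and 28.5 and 20.4 in KO M0. The KO M2 arrays stood far above the rest, with a log2 change of 5.78 against KO M0 (SE 0.28, adjusted p = 1.77e-05 by limma), or 5.06 with 16 added before the log2 (adjusted p = 0.000462), since the size depends on dim KO M0 values. Summed endothelial markers were 234 to 340 in KO M1, 1196 to 1334 in KO M2 and 364 to 384 in KO M0, and Vwf, which endothelial cells and platelets make, read 35.2 and 46.6 in KO M1, 1182 and 1080 in KO M2, and 239 and 230 in KO M0. Of the 6 endothelial markers, Vwf alone was called in KO M2 against KO M0 by limma, and their median log2 change was 0.02. The difference in the sum thus lay mainly in Vwf. Kdr, a VEGF receptor and another of the 6 markers, was at 96.5 and 68.4 in KO M2 and 89.7 and 80.3 in KO M0. The part of the marker genes in the Flt1 result was not tested.

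Nrp1, a VEGF co-receptor, read 695 and 749 in KO M1, 2334 and 2306 in KO M2, and 2917 and 2722 in KO M0, a KO M1 change of -1.97 (adjusted p = 8.91e-05 by limma). Vegfb, a relative of Vegfa, read 137 and 148 in KO M1, 219 and 234 in KO M2, and 302 and 275 in KO M0, a KO M1 change of -1.02 (adjusted p = 0.00191). In both genes the KO M1 arrays were the lowest. Kdr read 250 and 134 in KO M1, with a change of 1.11 against KO M0 (adjusted p = 0.0489, and up to 0.258 when any 1 array but KO M1 replicate 2 was left out).

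None of the 4 genes of the PDGF axis, Pdgfd, Pdgfra, Pdgfrb and Plat, passed limma's test in any comparison, 0 also at an unadjusted p under 0.05 and 0 by the methods' t-test, and they read between 7.17 and 38.8 on all arrays. Their medians were 0.08 in KO M1 and 0.01 in KO M2. Of 14 genes of EGF family ligands, receptors and sheddases, 2 were higher in KO M1 and 1 in KO M2, and none was lower, with medians of 0.08 and 0.14. Rhbdf2, which helps the sheddase of Hbegf mature, read 679 and 643 in KO M1, 587 and 583 in KO M2, and 397 and 398 in KO M0. Its change was 0.73 in KO M1 (adjusted p = 0.00679 by limma, and up to 0.0725 without either KO M0 array) and 0.56 in KO M2 (adjusted p = 0.0243, or 0.0509 with the mouse as a block, and up to 0.167 without a KO M2 or KO M0 array, replicate 1 or 2). Erbb3, an EGF family receptor, changed by 0.53 in KO M1 (adjusted p = 0.0463, or 0.07 with the block, and up to 0.29 without any 1 array).

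**Figure D4:**
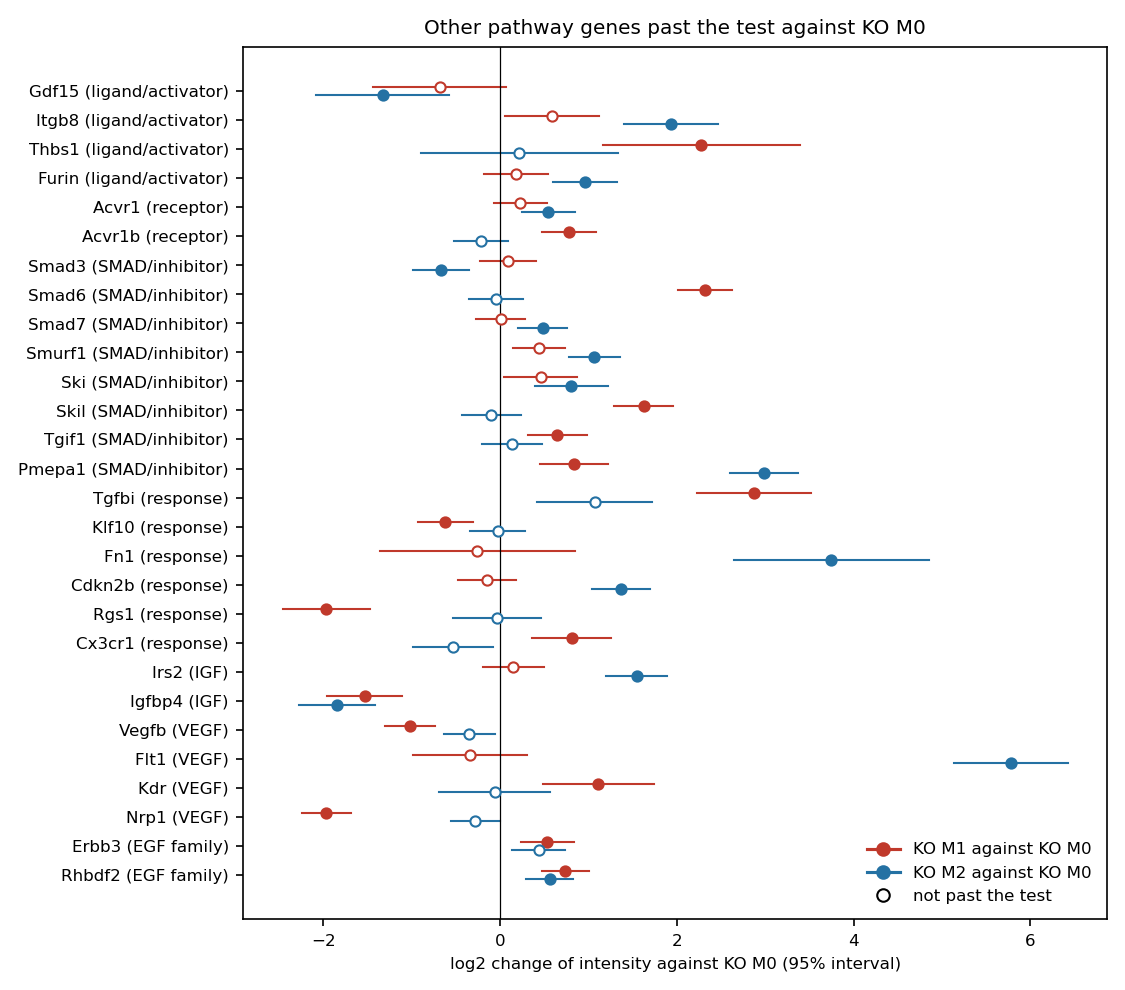
log2 change of intensity against KO M0, with 95% intervals, of 28 other pathway genes past the test in KO M1 (red) or KO M2 (blue), by list. Open points did not pass. Flt1 in KO M2 (5.78) is the highest point, and Igfbp4 is the one plotted gene with filled points below 0 in both conditions.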

How the data were processed

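Arrays of 6 KO cultures were compared. RMA was run by the authors in GenePattern, and they deposited linear intensity values per probe set, and 64 control probe sets were left out here. The merged table also holds the authors' class means, coefficients of variation, fold changes and p-values (3 columns each of folds and p-values), none of which was used. Log2 intensities of 45037 probe sets were fitted with limma 3.58.1 (R 4.3.3), 3 conditions in one fit, and called at a Benjamini-Hochberg adjusted p under 0.05. The methods' t-test was an alternative. A gene was read from its brightest probe set, and all probe sets of the 10 genes are named. In other lists the largest changes past the test are named, and all of those in lists with 5 or fewer calls. One listed gene is not reported here. Members and lists were chosen with earlier results of these data known.

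Replicate numbers pair the cultures because the labels give the same mouse to each number (2 independent mice). Deviations from the condition means, compared between arrays of one number, had correlations of -0.162 (KO M1 and KO M0), 0.209 (KO M2 and KO M0) and -0.215 (KO M1 and KO M2). The fit was run on simulated data with independent noise, the same spread in all conditions and no mouse effect. Such data cannot show how well the p-values hold for these arrays. With 2 mice, precision is limited by their number. The limma p-values rest on the spread between the cultures within each condition, pooled over the 3 conditions (3 residual degrees of freedom). That spread is moderated by the spread of all probe sets (5.49 prior degrees of freedom). The study removed 1 KO sample for RNA quality.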

Additional observations from a re-analysis of the deposited data

How the results depend on the processing

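No value past the test changed its direction under any alternative. With the mouse as a block (replicate block), lower member probe sets in KO M1 against KO M0 numbered 7 in place of 11, TGF-beta family ligands and activators 3 in place of 5, receptors 1 in place of 2, and EGF family genes 1 in place of 2. Besides the calls given in the report, it ended calls of Klf10 and Cx3cr1 and that of Smad7 in KO M1 against KO M2, and among the other results reported here it changed no call. With the KO M1 numbers crossed, a pairing chosen after seeing the data, 12 member probe sets were lower for KO M1 against KO M0. The methods' t-test after Benjamini-Hochberg called 0 in every count, and unadjusted it called 0 higher and 9 lower in KO M1, 7 higher and 6 lower in KO M2, and 3 higher and 9 lower in KO M1 against KO M2. Unadjusted, it called 2 ligands and activators, 6 receptors, 4 IGF axis genes and 4 EGF family genes, in place of 5, 2, 2 and 2.

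With 16 added before the log2, 6 member probe sets were lower for KO M1 against KO M0 and 3 ligands and activators were called. Ligands and activators also numbered 3 with each array centred on its median and with probe sets under a mean of 50 left out. Receptors numbered 1 after a further quantile normalization. EGF family genes numbered 1 with an intensity trend and 1 with only the arrays compared, and with only the arrays compared 1 member probe set was higher in KO M1 than in KO M2, in place of 2.

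Leaving out each array in turn gave 0 higher and 4 to 9 lower member probe sets in KO M1, 4 to 5 higher and 1 to 5 lower in KO M2, and 1 to 3 higher and 9 to 13 lower in KO M1 against KO M2. The lists gave 3 to 5 ligands and activators, 1 to 3 receptors, 5 to 9 SMAD genes, 7 to 12 response genes, 2 to 3 IGF, 3 to 4 VEGF, 0 PDGF and 0 to 2 EGF family genes. Without KO M0 replicate 1 or 2, 15 and 14 of the 72 member values lost their call. Low intensities limit Pdgfc, Itgb8, the KO M2 and KO M0 values of Smad6, and the KO M1 and KO M0 values of Hbegf and Flt1, since the table gives no detection calls.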

Other observations

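Over the 6 arrays, the genes whose brightest probe set tracked Igf1 most closely, among 9061 genes with a mean intensity of at least 100, were Msl3 (Pearson r = 0.9994 of log2 values), Tpm4 (r = 0.9988) and Arhgef7 (r = 0.9969), and 404 genes had r above 0.95. Msl3 is a chromatin protein, Tpm4 a tropomyosin and Arhgef7 an exchange factor of small GTPases. Their KO M1 against KO M0 log2 changes were -0.76, -0.68 and -0.80, beside -1.75 for Igf1. For Vegfa, whose KO M1 arrays of the 2 mice were split, 5 genes had r above 0.95, led by Numa1 (r = 0.9855), AI839979 (r = 0.9612) and Trpv2 (r = 0.9595). AI839979 read 111 and 262 in KO M1, 201 and 195 in KO M2, and 250 and 239 in KO M0. These points share 3 conditions and 2 mice, so a high r follows from any common difference between conditions, and no test was made.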
